A study of Danio rerio with 14 samples.

Results

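These results describe 89 broadly expressed genes that were lower in psmb1 mutants than in wild-type/heterozygous larvae in both kinds of cranial cells that were sorted, out of 32520 genes counted. They were chosen by their measured values. A gene was kept if its mean reached 5 CPM (counts per 1000000 counts of the library) in at least 1 group of libraries and if its wild-type/heterozygous means in the 2 cell types, with 1 added to each, lay within 4-fold of each other, which left 9967 genes. For each kept gene the log2 ratio of the mutant mean to the wild-type/heterozygous mean, with 1 added to both, was centred on the median of the kept genes. A member had a ratio of -0.7 or lower in both cell types and had every mutant library below every wild-type/heterozygous library in both. The limit of 150 members was not reached. The mutant levels and ratios given below for members are therefore descriptions of how they were selected, with no test. Broadly expressed means here only that a gene was kept in these 2 sorted cell types. The members' wild-type/heterozygous means went down to 1.48 CPM in sox10+ cells and 1.05 CPM in mylz2+ cells.

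The tested larvae were psmb1-/- mutants of the hi2939 line, which carries a retroviral insertion in the first intron of psmb1, a gene for a subunit of the 20S proteasome core. They were set against pooled psmb1+/+ and psmb1+/- larvae (WH below). Heads of larvae at 72 hours postfertilization (hpf) were dissected, 20 to 25 per sample, and dissociated. Cells were sorted from the sox10:kaede reporter, which marks neural crest derivatives and most strongly chondrocytes but also other cells such as those of the ear (7000 cells per sample), or from the mylz2 reporter, which marks fast muscle (1500 cells per sample). Each cell type had 3 mutant (M) and 4 WH libraries. The mutant libraries are numbered 1, 3 and 4 in sox10+ cells and 1, 2 and 4 in mylz2+ cells, and mylz2+ mutant library 2 carries a sample title that calls it replicate 3. Each library pooled many larvae. Nothing in the labels says whether WH pools held like shares of the 2 genotypes.

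The proteasome degrades proteins marked with ubiquitin and so sets the lifetime of signalling proteins, transcription factors and cell cycle regulators. When its activity drops, cells are known to raise transcription of the proteasome subunit genes. The genes described here go the other way and were counted in both sorted populations, which hold other cells beside cartilage and muscle. They include cytoskeletal linkers, membrane proteins, metabolic enzymes, and antagonists and receptors of growth factor pathways.

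The libraries held 54824619 to 103563447 counts each. PSMB1 had 98.4, 74.2 and 88.0 CPM in the sox10+ libraries labelled mutant, against 53, 83.0, 88.1 and 84.1 CPM in WH, so the groups overlapped. In mylz2+ cells it had 102, 86.7 and 87.6 CPM in mutants, against 115, 132, 136 and 121 CPM in WH. The insertion lies in an intron, and the line is described as making full-length transcript at a reduced level. That level was measured by qRT-PCR, for which RNA came from whole larvae or dissected parts and not from sorted cells. A lower PSMB1 level was therefore looked for in mutants. In sox10+ cells the labelled mutants were not lower than WH, so PSMB1 did not bear out the labels there. A sox10+ mutant library below means a library labelled mutant. Of the 36 proteasome genes listed, 35 were called higher in each cell type, the direction known from lowered proteasome activity. In mylz2+ cells the remaining 1 was called lower. The median log2 fold change of the list was 1.89 in sox10+ cells and 1.42 in mylz2+ cells. The list thus went with the mutant labels in both cell types. PSMB1 did not share that clear rise in either cell type, as its CPM values above show. PSMB1 is itself a proteasome subunit gene, so its level alone cannot decide the labels. Of the cell type markers, the glia list (10 genes) summed to 912 to 1094 CPM in sox10+ mutants, against 2331 to 5145 CPM in sox10+ WH, and 5 of its genes were called lower. The neuron list summed to 454 to 609 CPM in sox10+ mutants, against 791 to 1077 CPM in WH. The chondrocyte and neural crest list summed to 73155 to 102691 CPM in mutants, against 118902 to 169038 CPM in WH. Its highest gene, a COL2A1 gene (ENSDARG00000069093), averaged 40501 CPM in mutants and 61189 CPM in WH. In sox10+ cells edgeR called 1 of its 13 genes, lower, where 9 were lower at an unadjusted p under 0.05 and DESeq2 called 9. BARX1 averaged 39.2 CPM in mutants and 39.4 CPM in WH. The SOX9 genes averaged 213 and 145 CPM in mutants, against 263 and 108 CPM in WH. In mylz2+ cells the fast muscle list summed to 136938 to 199371 CPM in mutants, against 201289 to 224052 CPM in WH. Its highest gene, actc1b, averaged 75332 CPM in mutants and 93706 CPM in WH. Of its 20 genes, 12 were called lower and 0 higher. Among those not called, pvalb2 (4065 CPM in mutants, 2201 CPM in WH) and tpma (4832 and 2792 CPM) had higher means in mutants. The glia list in mylz2+ cells summed to 139 to 159 CPM in mutants, against 135 to 265 CPM in WH. There FABP7 (ENSDARG00000007697), at 90.6 CPM in mutants and 131 CPM in WH, and FOXD3, at 53.5 and 45.3 CPM, made up most of the sum. In mylz2+ cells 0 of 7 glia genes tested were called. The myelin sheath genes mbpa and plp1b were at or near 0 there in both genotypes. They had 0 counts in all mylz2+ mutant libraries and averages of 0.493 and 0.163 CPM in WH. The osteoblast and bone list was lower in both cell types without overlap: it summed to 217 to 406 CPM in sox10+ mutants, against 463 to 1403 CPM in WH, and to 102 to 119 CPM in mylz2+ mutants, against 238 to 284 CPM in WH. Of its genes, edgeR called 0 of 8 in sox10+ cells, where 3 were lower at an unadjusted p under 0.05 and DESeq2 called 2 lower. A COL10A1 gene (ENSDARG00000054753) carried most of the sox10+ sum (225 CPM in mutants and 643 CPM in WH on average). SP7 (3.78 CPM in sox10+ mutants, 2.10 CPM in WH) and ALPL (43.3 and 37.0 CPM) had higher means in mutants. In mylz2+ cells 2 of 7 were called, both lower, and PHEX, a bone endopeptidase, carried most of the sum there (89.7 CPM in mutants and 222 CPM in WH on average). The otic and supporting epithelium list overlapped in sox10+ cells, with sums of 2335 to 3535 CPM in mutants, against 1287 to 2361 CPM in WH. Of its 11 genes tested there, 3 were called higher (OTOG, OTOGL and TECTB) and 1 lower (sparcl1). Most of that sum came from stm, which was not called (2257 CPM in mutants and 1401 CPM in WH on average). The leukocyte list had a higher sum in sox10+ mutants, at 76.9 to 91.4 CPM, against 28.4 to 67.5 CPM in WH. There csf1ra carried most of the sum (58.7 CPM in mutants and 31.2 CPM in WH on average), and 0 of 9 genes tested were called. CORO1A averaged 15.6 CPM in sox10+ mutants and 14.7 CPM in WH. In mylz2+ cells the leukocyte sums overlapped, at 23.0 to 82.5 CPM in mutants, against 7.57 to 27.4 CPM in WH. Of 11 leukocyte genes tested there, 1 was called, CORO1A. It was higher, at 9.42 CPM in mylz2+ mutants and 2.12 CPM in WH (log2 fold change 1.71, edgeR adjusted p = 0.0339). None of the 13 marker lists holds a member (0 lists). The part of these shifts in the members' values was not tested. In bulk libraries fewer cells of a type and less RNA per cell cannot be told apart.

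Of the 9967 kept genes, 872 had a ratio of -0.7 or lower in sox10+ cells. In mylz2+ cells 1365 did, and 384 in both. The demand that libraries not overlap reduced the 384 to 159 where it was made for sox10+ cells, to 173 for mylz2+ cells and to 89 for both. Across all kept genes the 2 ratios had a Spearman's rho of 0.54, which describes genes that share libraries and has no test. The members' median ratio was -1.15 in sox10+ cells (range -3.08 to -0.73) and -1.25 in mylz2+ cells (range -3.38 to -0.72), and 47 members were at -1 or lower in both. Their mutant mean was, at the median member, 51.5% of the WH mean in sox10+ cells and 53.8% in mylz2+ cells. Over all kept genes the same medians were 119% and 136%, beside the lower sums of the chondrocyte and fast muscle markers given above. Of the members, 56 had the more negative ratio in mylz2+ cells and 33 in sox10+ cells.

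**Figure D1:**
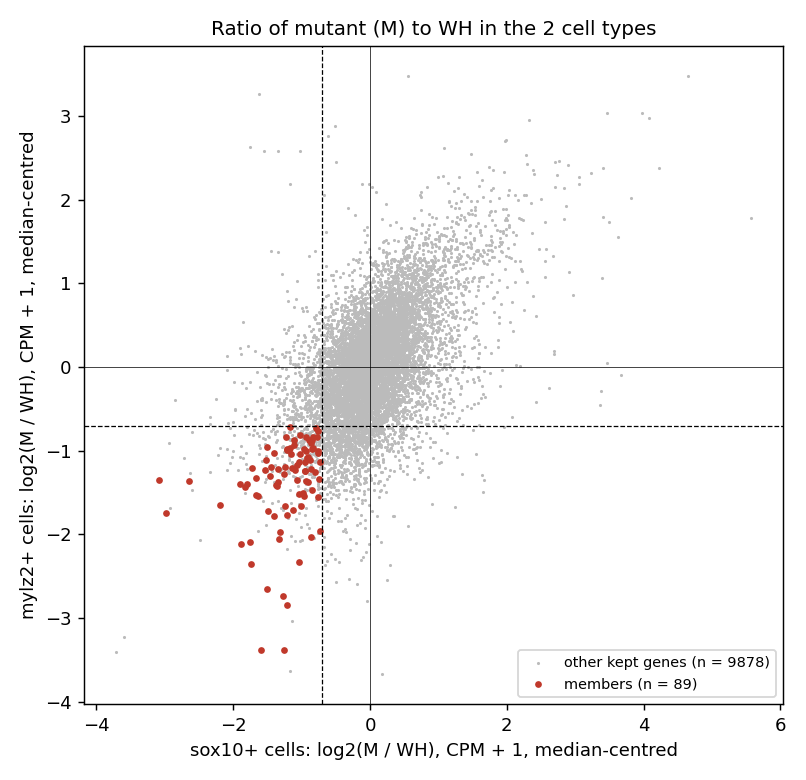
Centred log2 ratios of mutant to WH for the 9967 kept genes, sox10+ cells on the x axis and mylz2+ cells on the y axis. The 89 members (red) lie in the lower left, below -0.7 on both axes (dashed), where 384 genes lie in all; the grey genes there had overlapping libraries.

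The members closest to the threshold were CD99L2 (higher ratio of the 2 at -0.727), ALDH4A1 (-0.726) and ADK (-0.72). CD99L2, a cell surface glycoprotein related to CD99, had 116, 91.1 and 70.1 CPM in sox10+ mutants, against 120, 120, 179 and 126 CPM in WH, and 47.2, 42.3 and 46.8 CPM in mylz2+ mutants, against 54.3, 58.0, 55.4 and 62.9 CPM in WH. The first genes outside were a second gene listed as SLC43A1 (-0.687), FSCN1 (-0.682) and hmgn7 (-0.682). In the fit over all genes, edgeR's quasi-likelihood test called 1.61% of 21476 genes lower and 2.10% higher in sox10+ mutants, and 11.6% of 20413 genes lower and 10.7% higher in mylz2+ mutants, at an adjusted p under 0.05. All mutant libraries lay below all WH libraries for 5.94% of the genes tested in sox10+ cells and 8.01% in mylz2+ cells. Among the 89 members, 32 were called lower in sox10+ cells and 88 in mylz2+ cells. Because the rule used these contrasts, nothing is read from those counts. The sox10+ count fell to 4 without mutant library 1, 9 without mutant library 3, 10 without mutant library 4, and 19, 12 and 16 without WH libraries 1, 2 and 3, and it was 80 with DESeq2. On unscaled library totals the median gene moved to 0.12 on the log2 scale in sox10+ cells and to 0.41 in mylz2+ cells, and the share of calls that were lower was 28.1% in place of 43.3% in sox10+ cells and 20.5% in place of 51.9% in mylz2+ cells. With DESeq2 that share was 54.6% in sox10+ cells.

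CD81 (ENSDARG00000036080) had the highest CPM of the members, on a scale not set per gene length. It encodes a tetraspanin, a 4-pass membrane protein that organizes other membrane proteins into domains. It had 1568, 1616 and 1673 CPM in sox10+ mutants, against 2760, 2587, 2656 and 2020 CPM in WH. In mylz2+ cells it had 848, 799 and 654 CPM in mutants, against 1259, 1127, 1352 and 1691 CPM in WH. The sox10+ mutant libraries lay close together and WH library 4 was the lowest of its group, still above all mutants. A second tetraspanin gene, tspan2b, had 3.03, 4.51 and 3.35 CPM in sox10+ mutants, against 15.7, 20.6, 14.3 and 17.2 CPM in WH. In mylz2+ cells tspan2b had 1.60, 0.550 and 1.64 CPM in mutants, against 3.82, 5.88, 2.23 and 5.68 CPM in WH. In mammals TSPAN2 is known from myelinating glia, whose markers were also lower in the sox10+ mutants, as given above. In mylz2+ cells, where tspan2b was lower too, 0 of 7 glia genes tested were called. A link between tspan2b and the glia markers was not tested.

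Next in CPM were BHMT, given below, and plscr3b, which encodes a phospholipid scramblase, a protein of a family named for moving lipids between the leaflets of membranes. It had 130, 141 and 172 CPM in sox10+ mutants, against 249, 254, 343 and 330 CPM in WH, and 146, 136 and 116 CPM in mylz2+ mutants, against 366, 355, 294 and 372 CPM in WH. Its level was thus much alike in the 2 cell types. CDC42EP3, an effector of the GTPase Cdc42 that acts on actin and septins, had 18.5, 33.0 and 37.3 CPM in sox10+ mutants, against 98.1, 124, 53.8 and 82.9 CPM in WH. In mylz2+ cells CDC42EP3 had 177, 134 and 125 CPM in mutants, against a tight 293, 295, 284 and 301 CPM in WH.

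ANP32E encodes a histone chaperone known in mammals for removing H2A.Z from chromatin. It had 96.7, 118 and 107 CPM in sox10+ mutants, against 143, 165, 161 and 150 CPM in WH, and 225, 208 and 161 CPM in mylz2+ mutants, against 310, 294, 275 and 337 CPM in WH. SLC38A2, a sodium-coupled transporter of neutral amino acids, had 87.7, 98.2 and 74.1 CPM in sox10+ mutants, against 99.1, 126, 171 and 111 CPM in WH, where mutant library 3 and WH library 1 nearly met. In mylz2+ cells SLC38A2 had 152, 178 and 128 CPM in mutants, against 200, 180, 203 and 249 CPM in WH, and mutant library 2 was just under WH library 2. The unannotated gene si:ch211-156j16.1 had 153, 220 and 216 CPM in sox10+ mutants, against 256, 354, 250 and 351 CPM in WH, and 131, 131 and 125 CPM in mylz2+ mutants, against 153, 188, 193 and 190 CPM in WH.

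**Figure D2:**
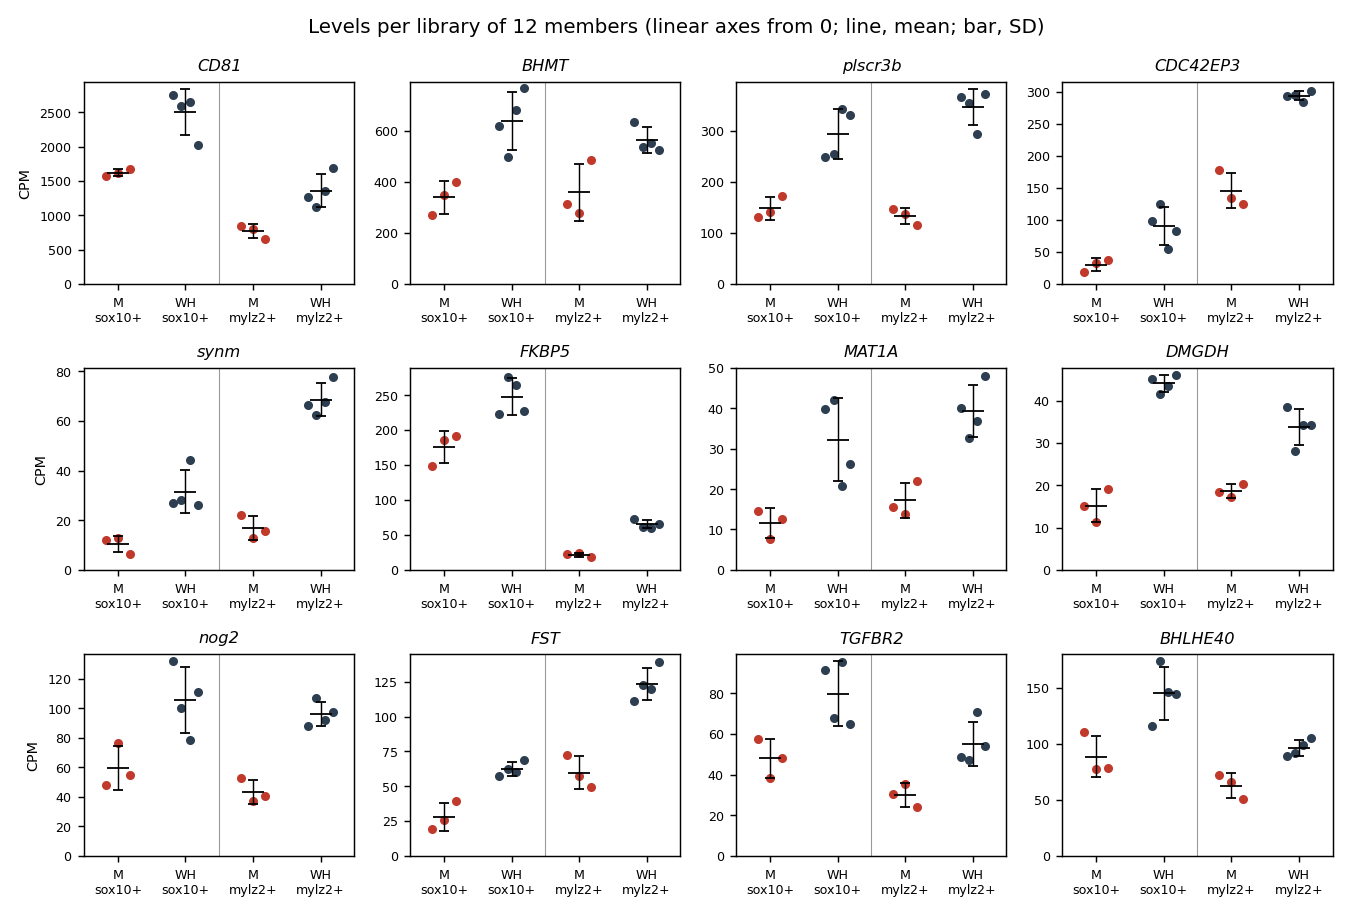
CPM of 12 members in each library, with sox10+ M and WH at the left and mylz2+ M and WH at the right of each panel; points are libraries (3 M, 4 WH), the line is the mean and the bar the SD. In every panel all M points lie under all WH points of the same cell type, as the rule required; FKBP5 is higher in sox10+ cells and CDC42EP3 and synm in mylz2+ cells.

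Several members encode enzymes of betaine, methionine and ethanolamine metabolism. BHMT transfers a methyl group from betaine to homocysteine and so makes methionine and dimethylglycine. It had 270, 348 and 398 CPM in sox10+ mutants, against 617, 496, 680 and 766 CPM in WH, and 312, 276 and 486 CPM in mylz2+ mutants, against 636, 538, 554 and 524 CPM in WH. Mutant library 4 was the highest of the mutants in both. DMGDH, the mitochondrial enzyme that removes a methyl group from dimethylglycine, had 15, 11.2 and 19.0 CPM in sox10+ mutants, against 45.2, 41.6, 43.6 and 46.0 CPM in WH. In mylz2+ cells DMGDH had 18.4, 17.2 and 20.4 CPM in mutants, against 38.5, 28.0, 34.3 and 34.2 CPM in WH. BHMT and DMGDH are also neighbours, with 0 genes listed between them in the RefSeq annotation of GRCz12tu, and they act in successive steps.

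MAT1A, which makes the methyl donor S-adenosylmethionine from methionine, had 14.6, 7.54 and 12.6 CPM in sox10+ mutants, against 39.8, 42.0, 20.8 and 26.2 CPM in WH. In mylz2+ cells MAT1A had 15.6, 13.9 and 22.1 CPM in mutants, against 40.1, 32.6, 36.8 and 48.0 CPM in WH. In mammals MAT1A is best known from the liver, whereas MAT2A is the form of most other tissues. Of 2 genes listed as MAT2A, ENSDARG00000040334 was at 101 ± 10.4 CPM in sox10+ mutants and 66.8 ± 13.8 CPM in WH, and at 70.3 ± 7.64 CPM in mylz2+ mutants and 92.0 ± 9.50 CPM in WH (SD, n = 3 M and 4 WH). ADK (ENSDARG00000039429), adenosine kinase, which clears the adenosine left when S-adenosylmethionine has been used, had 26.6, 29.3 and 25.2 CPM in sox10+ mutants, against 35.3, 45.0, 61.6 and 69.4 CPM in WH. In mylz2+ cells ADK had 14.9, 13.1 and 10.9 CPM in mutants, against 16.8, 16.9, 15.2 and 17.3 CPM in WH, and mutant library 1 nearly reached WH library 3. A second gene listed as ADK (ENSDARG00000095947) averaged 31.2 CPM in sox10+ mutants and 46.1 CPM in WH. In mylz2+ cells that second gene averaged 33.0 CPM in mutants and 23.9 CPM in WH, and it was called in neither cell type.

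PISD and ETNPPL, which act on phosphatidylserine and phosphoethanolamine, were also members. PISD averaged 54.4 ± 14.5 CPM in sox10+ mutants and 124 ± 35.6 CPM in WH, and 43.9 ± 7.88 CPM in mylz2+ mutants and 68.9 ± 8.48 CPM in WH. ETNPPL had the lowest means of the members in sox10+ cells, 0.234 CPM in mutants and 1.48 CPM in WH. Its libraries there had 0.0169, 0.684 and 0 CPM in mutants, against 2.44, 1.22, 1.31 and 0.946 CPM in WH. A count of 0 in sox10+ mutant library 4 allows up to 0.0416 CPM. ETNPPL could reach the 5 CPM of the rule only through mylz2+ WH libraries, and its mylz2+ ratio was -1.66. A list of betaine, methionine and choline metabolism put together after the members were seen holds 30 genes, of which 6 are members, so it gets no test. Over the 29 genes of the list tested, members included, the median log2 fold change was -0.47 in sox10+ cells and -0.05 in mylz2+ cells. The list as a whole thus shifted little in mylz2+ mutants, and the remaining genes were not all lower. GNMT, which uses S-adenosylmethionine to methylate glycine, averaged 28.0 ± 4.13 CPM in sox10+ mutants and 42.0 ± 10.2 CPM in WH. In mylz2+ cells GNMT averaged 30.2 ± 4.43 CPM in mutants and 17.6 ± 2.82 CPM in WH. ALDH4A1, the mitochondrial enzyme of proline breakdown, had 15.4, 15.0 and 13.4 CPM in sox10+ mutants, against 22.8, 24.2, 19.5 and 17.3 CPM in WH, and 8.74, 7.51 and 5.87 CPM in mylz2+ mutants, against 11.2, 12.3, 12.7 and 16.2 CPM in WH.

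Proteins that tie the cytoskeleton to the membrane and to cell junctions supplied several of the lowest ratios. synm encodes synemin, an intermediate filament protein that in mammals links desmin and vimentin filaments to sites of adhesion. It had 12, 12.7 and 6.48 CPM in sox10+ mutants, against 27.0, 28.3, 44.4 and 26.0 CPM in WH, and 22.1, 12.8 and 15.5 CPM in mylz2+ mutants, against 66.2, 62.4, 67.8 and 77.8 CPM in WH. plecb encodes a plectin, a large crosslinker of intermediate filaments, and had 58.6, 96.7 and 103 CPM in sox10+ mutants, against 166, 139, 129 and 137 CPM in WH. In mylz2+ cells plecb had 131, 136 and 81.0 CPM in mutants, against 247, 194, 181 and 217 CPM in WH. PARVA (ENSDARG00000035629), α-parvin, which binds integrin-linked kinase and actin at focal adhesions, had 4.47, 1.79 and 0.264 CPM in sox10+ mutants, against 5.16, 9.15, 12.3 and 5.64 CPM in WH. The mylz2+ values were 0.759, 1.92 and 2.31 CPM in mutants, against 6.85, 6.79, 7.94 and 9.13 CPM in WH. The sox10+ mutants of PARVA spread widely, and mutant library 1 lay close to the lowest WH library. A second gene listed as PARVA (ENSDARG00000043710) averaged 26.7 CPM in sox10+ mutants and 29.2 CPM in WH. In mylz2+ cells that second gene averaged 3.30 CPM in mutants and 2.38 CPM in WH, and it was called in neither cell type.

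TPPP3, a protein that promotes tubulin polymerization, had the lowest mylz2+ ratio of all members together with MYADM (-3.38 each). It had 4.80, 8.96 and 9.75 CPM in sox10+ mutants, against 22.8, 28.0, 24.0 and 11.6 CPM in WH, and 4.08, 2.72 and 1.57 CPM in mylz2+ mutants, against 26.2, 28.0, 38.0 and 24.6 CPM in WH. TPPP3 is also known from mammalian tendon, and the tendon list summed to 259 to 335 CPM in mylz2+ mutants, against 436 to 608 CPM in WH, and to 122 to 208 CPM in sox10+ mutants, against 215 to 302 CPM in WH. In mylz2+ cells most of that sum came from 1 XIRP2 gene (ENSDARG00000071113), known from muscle, at 265 CPM in mutants and 455 CPM in WH. The tendon gene TNMD averaged 1.16 CPM in mylz2+ mutants and 4.04 CPM in WH. In sox10+ cells 1 of 8 tendon genes tested was called, LUM, lower, at 31.2 CPM in mutants and 65.8 CPM in WH. The tendon gene SCX (8.24 and 6.96 CPM) and a THBS4 gene (ENSDARG00000102777, 22.3 and 20.3 CPM) had higher means in sox10+ mutants. MYADM (ENSDARG00000038709), a multi-pass protein of ordered membrane domains, had 53, 43.8 and 57.9 CPM in sox10+ mutants, against 78.9, 119, 98.3 and 127 CPM in WH. In mylz2+ cells it had 9.74, 3.07 and 16.3 CPM in mutants, against 86.9, 69.7, 72.8 and 107 CPM in WH. SMTNL2, a smoothelin-like actin-associated protein, had 39.7, 27.9 and 30.4 CPM in mylz2+ mutants, against 101, 89.7, 102 and 106 CPM in WH.

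The first member in the order of the rule was si:dkey-164f24.2, which has no described function in the table of names. It had 48.3, 62.0 and 59.5 CPM in sox10+ mutants, against 108, 187, 164 and 264 CPM in WH, and 23.5, 19.1 and 18.6 CPM in mylz2+ mutants, against 70.5, 70.3, 63.4 and 73.7 CPM in WH. The WH libraries of sox10+ cells spread much more than those of mylz2+ cells. si:ch211-214p13.3 had 0.101, 0.716 and 3.33 CPM in sox10+ mutants, against 5.60, 15.7, 20.6 and 17.9 CPM in WH, and 2.81, 3.05 and 1.79 CPM in mylz2+ mutants, against 8.37, 6.86, 8.23 and 8.90 CPM in WH. si:ch211-234p6.5 had 20.3, 17.2 and 21.7 CPM in sox10+ mutants, against 43.2, 70.4, 39.1 and 42.7 CPM in WH, and 3.01, 1.42 and 4.23 CPM in mylz2+ mutants, against 19.7, 13.6, 22.0 and 15.2 CPM in WH. EEIG2 (ENSDARG00000053104) was thinly covered in sox10+ cells, with 0.995, 1.93 and 0 CPM in mutants, against 4.01, 8.38, 5.42 and 2.13 CPM in WH, and had 10.6, 7.11 and 5.87 CPM in mylz2+ mutants, against 15.7, 15, 16.4 and 21.7 CPM in WH. Of the 89 members, 4 have no symbol. The lowest sox10+ ratio of all, -3.08, was that of one of these, ENSDARG00000109276.

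Growth factor antagonists and receptors formed a further group. The transforming growth factor β (TGF-β) and bone morphogenetic protein (BMP) ligands bind receptor kinases that activate Smad proteins, and secreted antagonists hold the ligands away from the receptors. FST (ENSDARG00000052846), follistatin, which binds activins and related ligands such as myostatin, had 19.5, 25.4 and 39.3 CPM in sox10+ mutants, against 57.5, 62.3, 59.9 and 69.0 CPM in WH. Its mylz2+ values were 72.6, 57.2 and 49.4 CPM in mutants, against 111, 123, 120 and 139 CPM in WH. nog2, a noggin that binds BMPs, had 47.9, 76.6 and 54.6 CPM in sox10+ mutants, against 132, 100, 78.4 and 111 CPM in WH, and sox10+ mutant library 3 nearly met WH library 3. In mylz2+ cells nog2 had 52.6, 37.0 and 40.8 CPM in mutants, against 88.1, 107, 91.7 and 97.1 CPM in WH. TGFBR2 (ENSDARG00000034541), the type II receptor for TGF-β, had 57.5, 38.5 and 48.2 CPM in sox10+ mutants, against 91.7, 67.7, 95.6 and 64.7 CPM in WH, and 30.4, 35.5 and 24.0 CPM in mylz2+ mutants, against 48.5, 47.0, 71.0 and 53.9 CPM in WH.

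Among the other genes of the TGF-β and BMP list, 9 of 41 tested were called lower and 3 higher in mylz2+ mutants, beside a background of 11.6% lower and 10.7% higher, and 0 of 41 were called in sox10+ mutants by edgeR, where 8 were lower at an unadjusted p under 0.05 and DESeq2 called 2. The 3 higher calls went to 0 without mylz2+ mutant library 2 and to 1 without mutant library 1, mutant library 4, WH library 1 or WH library 4. On unscaled totals 6 genes of the list, members included, were called lower in mylz2+ mutants in place of 12. TGFB3, a ligand, averaged 82.2 CPM in mylz2+ mutants and 160 CPM in WH (log2 fold change -1.36, edgeR adjusted p = 0.000193). A second gene listed as FST (ENSDARG00000057992) went the other way from the member in mylz2+ cells, with 5.84, 10.2 and 10.8 CPM in mutants, against 2.24, 1.56, 4.90 and 1.76 CPM in WH (log2 fold change 1.41 ± 0.42 SE, edgeR adjusted p = 0.0351). In sox10+ cells that second gene had 22.8, 19.8 and 29.0 CPM in mutants, against 32.1, 40.7, 43.6 and 30.3 CPM in WH (log2 fold change -0.74 ± 0.23 SE, edgeR adjusted p = 0.122).

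Other secreted regulators and receptors in the set were notum1b, a carboxylesterase that inactivates Wnt ligands, ccn2b, a matricellular protein of the connective tissue growth factor kind, and RAMP1, a partner of the calcitonin receptor-like receptor. notum1b had 5.75, 9.43 and 6.75 CPM in sox10+ mutants, against 10.9, 25.3, 16.0 and 12 CPM in WH, and 11.3, 4.77 and 12.6 CPM in mylz2+ mutants, against 68.4, 47.5, 45.2 and 49.9 CPM in WH. ccn2b had 8.33, 10.4 and 9.93 CPM in sox10+ mutants, against 19.0, 11.8, 19.5 and 19.8 CPM in WH, and 0.688, 1.1 and 0.286 CPM in mylz2+ mutants, against 5.90, 7.18, 5.04 and 3.76 CPM in WH. For both genes the gap was wider in mylz2+ cells. GRM4, a metabotropic glutamate receptor, had 10.4, 10.1 and 3.21 CPM in sox10+ mutants, against 17.5, 18.2, 24.9 and 15.6 CPM in WH, and 5.24, 5.76 and 8.45 CPM in mylz2+ mutants, against 16.9, 17.2, 20.1 and 20.5 CPM in WH. galr2b, a galanin receptor, had 1.35, 4.45 and 2.36 CPM in sox10+ mutants, against 5.29, 5.75, 15.3 and 5.33 CPM in WH. In mylz2+ cells galr2b was at the edge of detection, with 0.0237, 0.338 and 0 CPM in mutants, against 0.828, 0.433, 3.21 and 2.81 CPM in WH. GRM4 and galr2b are known from neurons, and the neuron list was lower in sox10+ mutants, as given above, while in mylz2+ cells it summed to 262 to 292 CPM in mutants, against 239 to 282 CPM in WH.

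ATP1B1 (ENSDARG00000076833), a β subunit of the sodium pump, had 14.9, 13.6 and 3.58 CPM in sox10+ mutants, against 47.1, 23.0, 38.9 and 35.4 CPM in WH, and 4.33, 13.1 and 8.72 CPM in mylz2+ mutants, against 24.9, 15.2, 15.4 and 18.8 CPM in WH. A second gene listed as ATP1B1 (ENSDARG00000013144) had 964, 823 and 707 CPM in sox10+ mutants, against 693, 832, 805 and 724 CPM in WH (log2 fold change -0.01 ± 0.14 SE, edgeR adjusted p = 0.984). In mylz2+ cells it had 515, 510 and 457 CPM in mutants, against 636, 711, 659 and 712 CPM in WH (log2 fold change -0.87 ± 0.12 SE, edgeR adjusted p = 0.000763). Of the other ion pumps and channels on the list, 13 of 31 were called lower and 2 higher in mylz2+ mutants (11.6% lower and 10.7% higher over all genes) and 1 of 31 each way in sox10+ mutants (1.61% lower and 2.10% higher over all genes). Among the lower ones was RYR1 (ENSDARG00000011422), the calcium release channel of the sarcoplasmic reticulum in muscle, at 455 CPM in mylz2+ mutants and 966 CPM in WH (log2 fold change -1.51, edgeR adjusted p = 0.000515). The fast muscle markers were lower in the same libraries, as given above.

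COL4A2, a chain of the type IV collagen of basement membranes, had 16.5, 8.35 and 12.2 CPM in sox10+ mutants, against 24.6, 31.6, 26.2 and 31.3 CPM in WH, and 2.73, 5.30 and 4.15 CPM in mylz2+ mutants, against 11.6, 8.45, 7.83 and 9.03 CPM in WH. Its partner chain COL4A1, not a member, averaged 44.6 CPM in sox10+ mutants and 82.2 CPM in WH (log2 fold change -1.0, edgeR adjusted p = 0.074) and 11.1 CPM in mylz2+ mutants and 22.0 CPM in WH (log2 fold change -1.42, edgeR adjusted p = 0.0292). Of the other matrix genes listed, 12 of 48 were called lower and 0 higher (0 also at an unadjusted p under 0.05 and 0 with DESeq2) in mylz2+ mutants by edgeR, beside 11.6% lower and 10.7% higher over all genes. In sox10+ mutants 3 of 50 were called lower and 2 higher, beside 1.61% and 2.10% over all genes. With COL4A2 included, the lower calls in mylz2+ mutants numbered 13, and they fell to 6 without mutant library 2 or WH library 4 and to 7 without mutant library 4 or WH library 1. In sox10+ mutants the 4 lower calls became 2 without mutant library 3 or 4 and 9 without WH library 4, and 25 with DESeq2. NDST4, a sulfotransferase that modifies heparan sulfate chains, had 10.1, 10.7 and 9.11 CPM in sox10+ mutants, against 23.3, 31.3, 44.3 and 16.2 CPM in WH, and 3.96, 7.88 and 2.57 CPM in mylz2+ mutants, against 11.2, 17.0, 8.87 and 10.2 CPM in WH. MAMDC2, a secreted protein of the matrix, had 1.92, 1.89 and 0.643 CPM in mylz2+ mutants, against 19.7, 7.67, 9.48 and 13.7 CPM in WH.

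FKBP5, a co-chaperone of steroid receptors that glucocorticoids induce, had 149, 186 and 191 CPM in sox10+ mutants, against 223, 276, 264 and 227 CPM in WH, and 22.6, 23.5 and 17.6 CPM in mylz2+ mutants, against 72.7, 60.9, 60.3 and 66.0 CPM in WH. The ratios were -0.73 in sox10+ cells and -1.96 in mylz2+ cells, and their difference was not tested. Of the other glucocorticoid receptor and response genes, edgeR called 6 of 19 in mylz2+ mutants, all lower, and 1 of 18 in sox10+ mutants, CEBPD, also lower. Over all genes 11.6% were called lower in mylz2+ mutants and 1.61% in sox10+ mutants. The 6 were the receptor NR3C1 itself, PDK4, foxo3b, IRS2 (ENSDARG00000075282, the other IRS2 gene not being called) and 2 genes listed as PER1. NR3C1 averaged 40.5 CPM in mylz2+ mutants and 48.2 CPM in WH (log2 fold change -0.66, edgeR adjusted p = 0.0116). Its libraries overlapped, at 51.2, 41.0 and 29.2 CPM in mutants, against 50.6, 43.2, 48.7 and 50.3 CPM in WH. Those of foxo3b overlapped too.

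The PER1 genes belong also to the circadian clock, in which the PER and CRY proteins feed back on their own transcription and BHLHE40 acts as a further repressor. BHLHE40 had 110, 77.1 and 78.5 CPM in sox10+ mutants, against 116, 174, 146 and 144 CPM in WH, where mutant library 1 lay just under WH library 1. In mylz2+ cells it had 71.7, 65.6 and 50.4 CPM in mutants, against 89.1, 91.4, 98.5 and 105 CPM in WH. Of the other clock genes, 11 of 30 were called lower and 2 higher in mylz2+ mutants, beside 11.6% and 10.7% over all genes, and 0 of 30 were called in sox10+ mutants by edgeR, where 7 were lower at an unadjusted p under 0.05 and DESeq2 called 4. The lower ones were both PER1 genes, CRY1, nr1d2a, NR1D2, nr1d4b, dbpb, tefb, NFIL3, ciarta and rorca, and the higher ones were PER2 and tefa. nr1d2a, a nuclear receptor that represses clock genes, averaged 86.3 CPM in mylz2+ mutants and 170 CPM in WH (log2 fold change -1.37, edgeR adjusted p = 0.000217). PER2, a light-induced clock gene in zebrafish, averaged 45.4 CPM in mylz2+ mutants and 21.8 CPM in WH (log2 fold change 0.66, edgeR adjusted p = 0.0114). On unscaled totals 7 clock genes, BHLHE40 included, were called lower in place of 12.

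NR4A3, an orphan nuclear receptor among the immediate early genes that cells induce within minutes of a stimulus, had 71.1, 55.4 and 39.0 CPM in sox10+ mutants, against 81.4, 98.7, 77.4 and 98.5 CPM in WH, and 24.1, 23.8 and 17.0 CPM in mylz2+ mutants, against 42.8, 39.2, 41.6 and 51.4 CPM in WH. The other immediate early genes were split, with 7 of 31 called lower and 6 higher in mylz2+ mutants and 1 each way in sox10+ mutants. The shares over all genes were 11.6% lower and 10.7% higher in mylz2+ mutants and 1.61% and 2.10% in sox10+ mutants. JUNB, a subunit of the AP-1 factor, was called higher in both (log2 fold change 0.78, edgeR adjusted p = 0.0428 in sox10+ cells; 0.33, edgeR adjusted p = 0.0438 in mylz2+ cells). On unscaled totals 2 genes of the list, NR4A3 included in the count, were called lower and 13 higher in mylz2+ mutants.

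RRM2 (ENSDARG00000078069), a subunit of ribonucleotide reductase, which makes the deoxyribonucleotides for DNA synthesis, had 26.4, 27.0 and 21.8 CPM in sox10+ mutants, against 30.1, 44.5, 49.8 and 30.6 CPM in WH, and 5.35, 5.85 and 2.89 CPM in mylz2+ mutants, against 14.1, 5.98, 15.4 and 8.62 CPM in WH. In mylz2+ cells mutant library 2 lay barely under WH library 2. The other genes of the cell cycle and DNA replication list gave calls for 10 of 34 lower and 1 higher in mylz2+ mutants, and for 5 of 34 in sox10+ mutants, all lower, where 11.6% of all genes were called lower in mylz2+ mutants and 1.61% in sox10+ mutants. MCM3, a subunit of the replicative helicase, was called lower in both, at 65.1 CPM in sox10+ mutants and 112 CPM in WH (log2 fold change -0.91, edgeR adjusted p = 0.0165) and at 8.40 CPM in mylz2+ mutants and 13.8 CPM in WH (log2 fold change -1.13, edgeR adjusted p = 0.0129). The 5 lower calls in sox10+ mutants (12 with DESeq2) became 0 without mutant library 1, 1 without mutant library 3, mutant library 4, WH library 1 or WH library 2, and 2 without WH library 3. Those in mylz2+ mutants, 11 with RRM2, became 6 without mutant library 4.

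**Figure D3:**
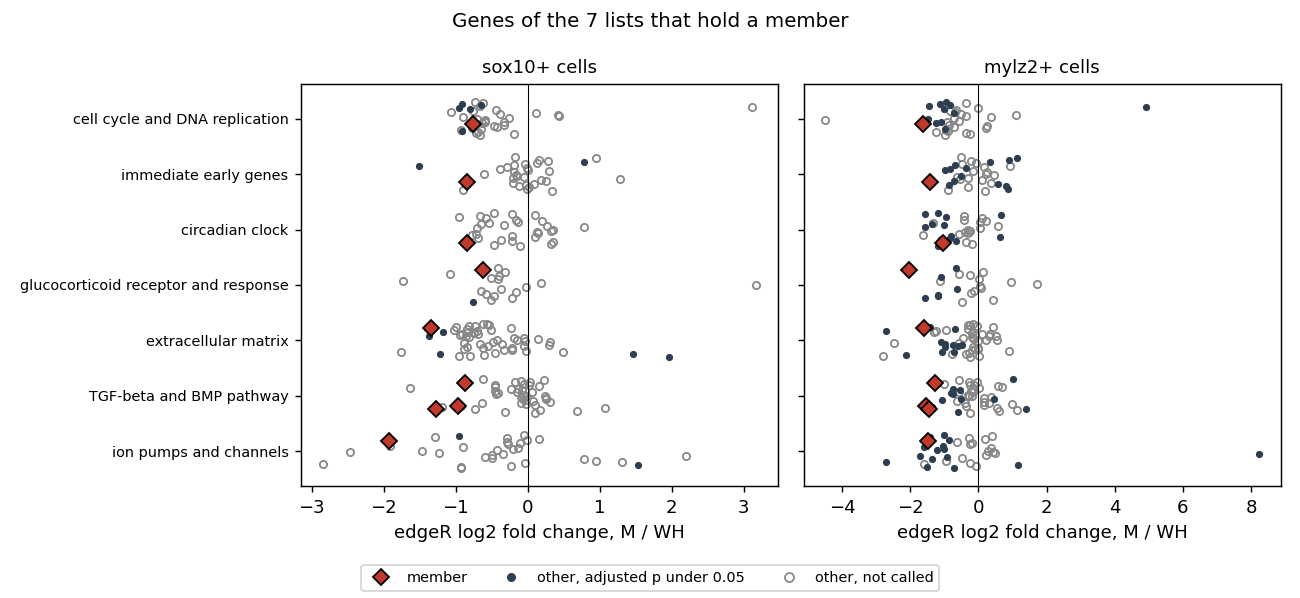
Log2 fold change of mutants over WH (edgeR, x axis) for each gene of the 7 lists that hold a member, sox10+ cells at the left and mylz2+ cells at the right. Diamonds are the members, filled points other genes called at an adjusted p under 0.05 and open points genes not called; the point beyond 8 has 0 counts in all WH libraries, so its position depends on the prior count.

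By role, 67 members fell into 7 groups and 22 were left without one. Of the 32 gene lists, 7 hold a member, and 9 members stand in a list. The groups were made with the values in view and are given as a description. The 9 secreted signals and receptors had a median ratio of -1.35 in sox10+ and -1.51 in mylz2+ cells. The 14 genes of transcription, RNA and intracellular signalling were closest to the threshold, with medians of -0.92 and -1.04 in those cell types, and they include NOVA1 and RBFOX3, which encode splicing regulators known from neurons. The 9 cytoskeletal genes had medians of -1.32 and -1.24, and the 9 metabolic enzymes of -1.17 and -1.21. The 15 membrane proteins and transporters ranged from -2.19 to -0.78 in sox10+ cells and from -3.38 to -0.73 in mylz2+ cells.

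**Figure D4:**
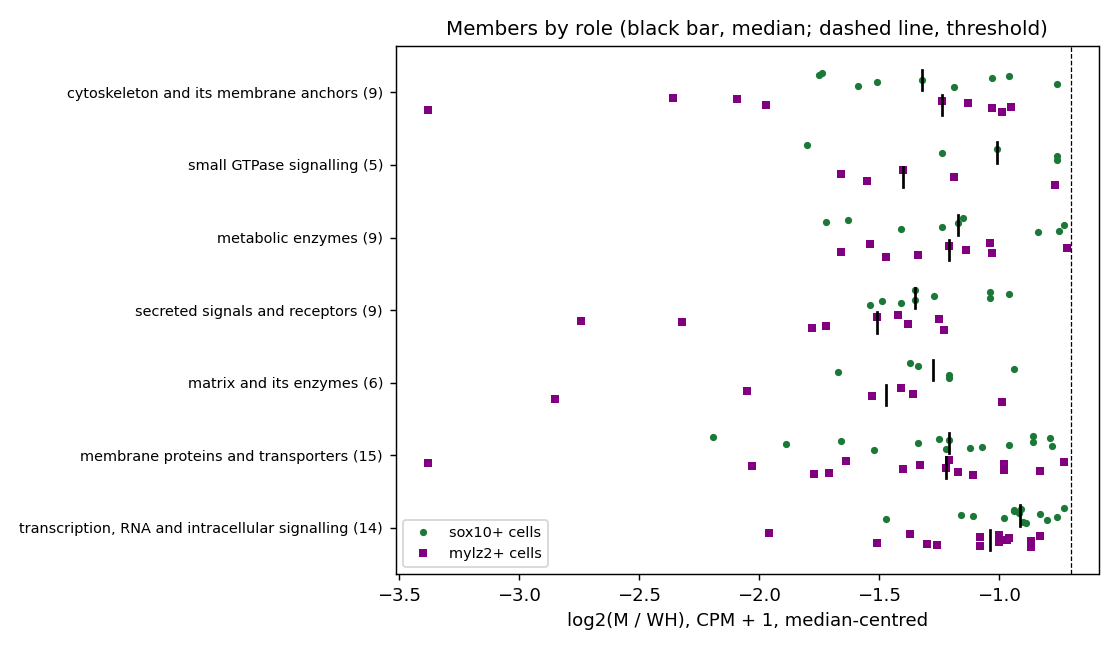
Centred log2 ratio of mutant to WH for 67 members in 7 role groups, sox10+ cells as circles and mylz2+ cells as squares, with the group median as a black bar and the threshold of -0.7 dashed. Group medians lie between -1.35 and -0.92 in sox10+ cells and between -1.51 and -1.04 in mylz2+ cells.

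Many zebrafish genes exist in a pair of copies left by a duplication of the whole genome in the ancestor of teleost fish. Of the members, 18 share their symbol with another gene, and in 17 pairs both genes were tested. None of the other genes is a member. In sox10+ mutants 1 of the 17 others was called, lower, and in mylz2+ mutants 4 were called lower and 1 higher. Their median log2 fold change was -0.54 in sox10+ cells (range -1.84 to 0.38) and -0.60 in mylz2+ cells (range -2.70 to 1.41). The member was the more negative of the pair in 15 of 17 in each cell type, a direction that the choice of members favours. In the CYTH1 pair, exchange factors for Arf GTPases, the member (ENSDARG00000021488) had 24.3, 23.8 and 15.2 CPM in mylz2+ mutants, against 48.0, 48.5, 49.1 and 48.3 CPM in WH, while the other gene (ENSDARG00000076742) had 61.2, 48.0 and 40.4 CPM in mutants, against 42.6, 35.2, 42.3 and 55.3 CPM in WH (log2 fold change -0.21 ± 0.17 SE after TMM scaling, edgeR adjusted p = 0.429). The groups of that other gene overlapped, and its higher mean CPM in mutants turned to a slightly negative fold change with the scaling. The second CD81 gene (ENSDARG00000022437), of low level, had 5.31, 6.16 and 7.32 CPM in sox10+ mutants, against 29.0, 19.7, 15.4 and 17.7 CPM in WH (log2 fold change -1.84 ± 0.35 SE, edgeR adjusted p = 0.0194). Reads of close copies may have been split between them in counting, so values of these pairs are uncertain.

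**Figure D5:**
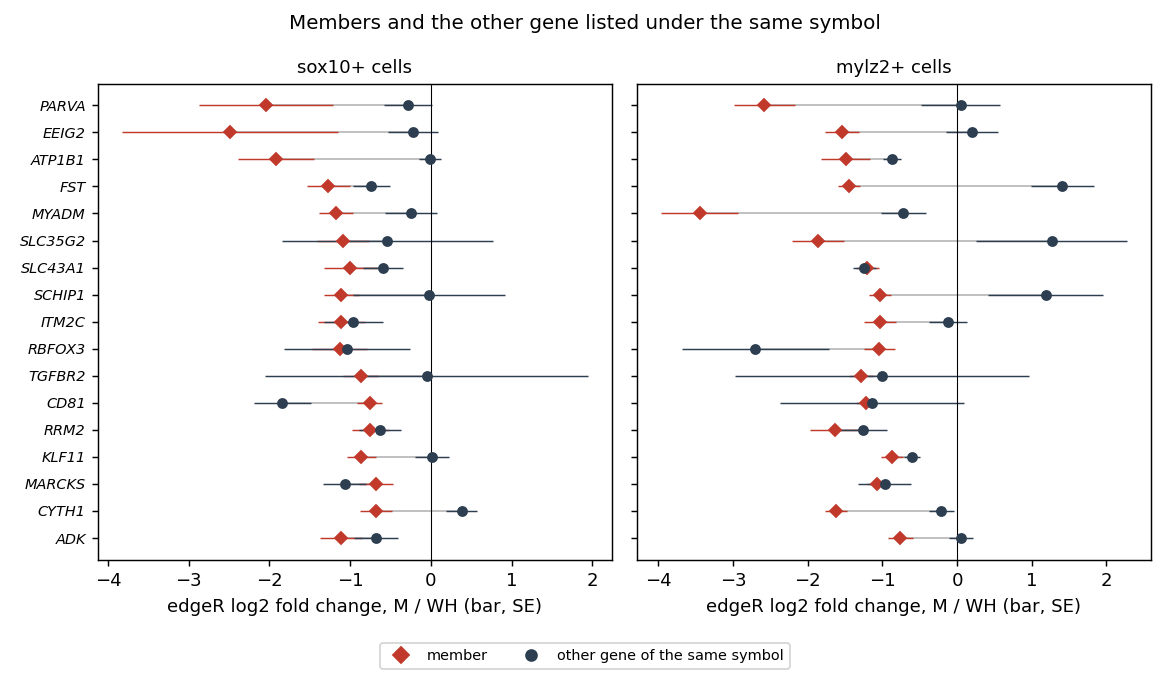
Log2 fold change of mutants over WH (edgeR, bars are SE) for 17 members (red diamonds) and the other gene of the same symbol (dark circles), sox10+ cells at the left and mylz2+ cells at the right. The FST pair lies on opposite sides of 0 in mylz2+ cells, whereas the SLC43A1 pair nearly coincides there.

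The members together took 0.450%, 0.488% and 0.479% of the counts in the sox10+ mutant libraries, against 0.793%, 0.843%, 0.843% and 0.792% in WH. In mylz2+ cells they took 0.388%, 0.357% and 0.326% in mutants, against 0.650%, 0.616%, 0.632% and 0.717% in WH. All mutant shares lay under all WH shares of their cell type, which the rule fixed in advance. The mutant libraries of a cell type lay close together. Within mylz2+ mutants, library 4 had the lowest value of the 3 for 56 members, library 2 for 22 and library 1 for 11. These ranks are on unscaled totals. On them the median log2 deviation over the kept genes was likewise lowest in library 4, at 0.25, against 0.44 in library 1 and 0.52 in library 2. Library 4 also had the highest fast muscle sum, 199371 CPM, which is the value closest to WH. Within sox10+ mutants the lowest value fell to library 4 for 41 members, library 1 for 30 and library 3 for 18. There too the median over the kept genes was lowest in library 4, at 0.21, against 0.34 in library 1 and 0.29 in library 3.

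In WH libraries 53 members were higher in sox10+ cells and 36 in mylz2+ cells. The members' median WH level was 36.1 CPM in sox10+ cells and 30.8 CPM in mylz2+ cells, beside 19.4 and 11.3 CPM over the kept genes in those cells. A member could reach 5 CPM only through a WH group, whereas other kept genes could do so through mutants. The rule therefore favours this difference. The median coefficient of variation among WH libraries was 21.1% for the members and 28.3% for the kept genes in sox10+ cells, and 14.1% and 18.6% in mylz2+ cells, a spread that the demand for separate groups restricts. The fewest counts of a member in a WH library were 55 in sox10+ cells and 30 in mylz2+ cells. In mutants 3 members had a library with 0 counts in sox10+ cells and 1 in mylz2+ cells.

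Genes of the photoreceptors are examples of what the demand for separate libraries removed, beside others such as apoa2, RAG2 and COL4A1. sagb, an arrestin of photoreceptors, had ratios of -3.60 and -3.23 and stayed outside because of sox10+ mutant library 3: it had 0.0843, 4.03 and 0.139 CPM in sox10+ mutants, against 1.09, 88.5, 2.52 and 3.52 CPM in WH. WH library 2 stood far above the rest, as it did for the retina and lens list, which summed to 4269 CPM there, to 222 to 583 CPM in the other 3 WH libraries and to 255 to 301 CPM in mutants. ARR3, a cone arrestin, was also highest in that library, with 10.3, 14.7 and 10.5 CPM in sox10+ mutants, against 16.8, 77.3, 24.0 and 7.32 CPM in WH. Without sox10+ WH library 2, 85 of the 89 members still met the rule, among 101 genes that did.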

How the data were processed

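RNA was measured in 14 libraries of sorted cells from zebrafish heads, 7 for each cell type. The authors sequenced amplified full-length cDNA and used STAR with the GRCz11 build to align the reads, and they deposited unnormalized whole-number counts for 32520 genes. DESeq2 is also named in the submitters' processing notes. The counting tool and its strand setting are not given in the sources used here, so reads of overlapping, antisense or near-identical genes cannot be told apart. No deposited column was left without a sample (0 unused columns).

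Counts were scaled to counts per 1000000 counts of the library (CPM) for the rule that chose the genes. Mutants were compared with wild-type/heterozygous libraries in each cell type alone with edgeR 4.0.16 (R 4.3.3), using TMM factors, the tool's default removal of low-count genes, the quasi-likelihood test and Benjamini-Hochberg adjustment over all genes tested. A gene was called at an adjusted p under 0.05. Standard errors of log2 fold changes were taken from the F statistic. The alternatives were DESeq2 1.42.0, RLE factors, unscaled library totals, no filter, a block for the replicate number and the removal of each library in turn, and for the rule other scalings, thresholds and added constants. The fits were first tested on simulated data.

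Totals per library were 54824619 to 103563447 counts, at which 3 counts were worth 0.029 to 0.0547 CPM. This floor covers counting error only, since amplified reads are not independent molecules. Symbols came from a table that pairs 29201 of the identifiers with a name. Many are written in capitals without the letter that separates zebrafish copies, and the identifier is given where a symbol is shared.

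The members and the gene lists were chosen with earlier results of these data known. Members named with all values are the first 12 in the order of the rule, the 8 most abundant in wild-type/heterozygous libraries, those in a list, and those next to a threshold. Other members were named after their values were seen, as were the role groups and the list for betaine and methionine metabolism. Promoter and protein sequences were not used here. For neighbouring genes, RefSeq annotation of GRCz12tu, a build other than the authors', was read for gene order alone.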

Additional observations from a re-analysis of the deposited data

Results flagged for a closer look

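Values of single libraries that stood apart were looked for among the 4 WH libraries in 90 sets of values, 64 of single genes and 26 of marker list sums, where chance gives about 1 in 20, and 9 stood apart. Among members, synm was high in sox10+ WH library 3 (44.4 CPM), si:ch211-234p6.5 in sox10+ WH library 2 (70.4 CPM) and galr2b in sox10+ WH library 3 (15.3 CPM), and si:ch211-156j16.1 was low in mylz2+ WH library 1 (153 CPM). In each case the library was far from the other 3 of its group, and for the low value it lay nearest the mutants. PSMB1 was low in sox10+ WH library 1 (53 CPM). Among marker sums, the retina and lens list was high in sox10+ WH library 2 (4269 CPM) and the erythrocyte list in sox10+ WH library 1 (23.5 CPM). In mylz2+ WH library 2 the neuron list (239 CPM) and the list of epidermis and pharyngeal epithelium (2521 CPM) were low. The part of these libraries in the members' values was not tested beyond leaving each library out.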

How the results depend on the processing

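The number of genes that met the rule, 89, was 166 on TMM-scaled totals, 50 without centring, 57 with WH means within 2-fold and 47 at a ratio of -1 or lower, and 93 to 127 with a library left out; in those fits 84 to 89 of the members still met the rule. On TMM-scaled totals 87 of the 89 did. In sox10+ cells the 345 genes called lower were 1335 with DESeq2 and 64 with a replicate block, and 109 to 435 with a library left out; the members called lower, 32, were 80 with DESeq2, 19 on library totals, 3 with the replicate block and 4 to 27 with a library left out. In mylz2+ cells the 2364 genes called lower were 1123 on library totals and 1711 to 2177 with a library left out, and the 88 members 77 to 89 over all alternatives. Deviations of same-numbered libraries correlated at 0.005, -0.042 and 0.058 in sox10+ cells and at -0.014, -0.014 and 0.02 in mylz2+ cells. By its title, mylz2+ mutant library 2 would pair with WH library 3, where the correlation was 0.003. The authors state that experiments used clutch-matched siblings. Correlations over so few libraries cannot exclude such pairing. PSMB1 in sox10+ cells had a log2 fold change of 0.04, of -0.02 without mutant library 1 and -0.08 without WH library 1, and at most 0.16 with a library left out. The cause of these shifts was not tested.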
